A study of Mus musculus with 6 samples.

Results

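The cells described here are the C1q-low cells of the soleus after hindlimb unloading (HU), from 1 library of young and 1 library of old mice. C1q is a complement protein that tissue macrophages make in bulk, so a limit on its transcripts leaves mainly the other cells of the muscle. A barcode was kept when it held at least 200 genes, at most 10% of its unique molecular identifiers (UMIs) in mitochondrial genes and at most 1 UMI over C1qa, C1qb and C1qc. The rule kept 896 of 2126 barcodes of the young HU library and 1189 of 2124 of the old HU library, together 2085 of the 7259 barcodes that it kept over all 6 libraries and of the 15467 in the files. The rule used no difference between ages.

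The mice were male C57BL/6 animals, young at 4-5 months or old at 20-22 months, whose hind limbs were unloaded for 14 days. Both solei of 8 young and of 10 old mice were pooled by age before sorting, so each age was 1 library and no test between ages was possible. The sort kept live cells with CD45 on their surface, and 3′ transcripts were counted on the 10x Chromium platform. Ambulatory controls and mice reloaded for 4 days gave the other 4 libraries. The young and the old animals came from different sources, which cannot be told apart from age. Intervals below are 95% intervals that cover counting error only, and "past 2-fold" is a rule of size applied to genes with at least 50 UMIs over both libraries in a class.

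Skeletal muscle holds resident leukocytes beside its fibres, vessels and connective tissue. Dendritic cells carry antigen to T cells, group 2 innate lymphoid cells (ILC2) release type 2 cytokines without an antigen receptor, and neutrophils arrive early from blood. Endothelial cells line the capillaries, and fibroblasts lay down the collagen of the matrix. Most of these cells answer tissue stress with immediate early genes, heat shock proteins, NF-kB targets and interferon-stimulated genes.

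The young HU library held 5782054 UMIs and the old HU library 7020839. The kept cells had a median of 2125 UMIs in the young and 2073 in the old library, so depth per cell was close. Barcodes above the mitochondrial limit made up 27.5% of the young and 9.60% of the old library, a measured difference in cell quality whose part in the results was not tested. Of the barcodes that passed the gene and mitochondrial limits, 41.0% in the young and 37.1% in the old library exceeded the C1q limit. Doublet scores marked 10 young and 14 old kept cells, and 1 barcode sequence occurred in both sets of kept cells. Clustering of the 2 libraries together gave 15 clusters, each named from markers, so every class name below stands for cells that are like that type.

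**Figure D1:**
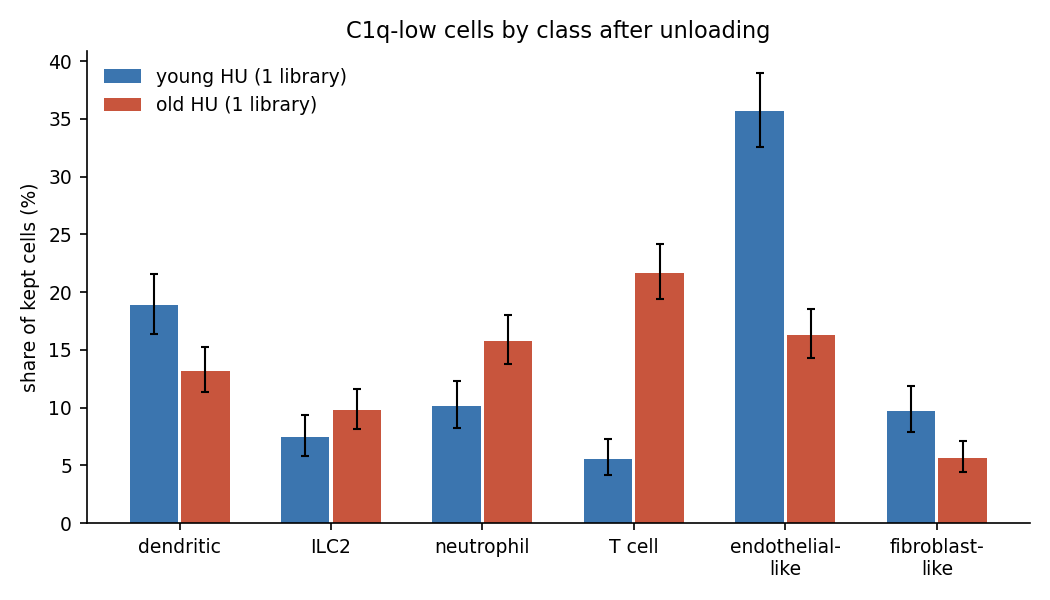
Bars give the share of kept cells in each class (y axis, percent) for young HU and old HU, and whiskers the exact 95% binomial interval. T cells made up 5.58% of young and 21.7% of old kept cells, whereas endothelial-like cells made up 35.7% and 16.3%.

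The old library held more T cells and neutrophils among its C1q-low cells, and fewer endothelial-like, dendritic and fibroblast-like cells. T cells were 50 of 896 young cells (5.58%, exact interval 4.17 to 7.29) and 258 of 1189 old cells (21.7%, 19.4 to 24.2), a difference of 16.1 percentage points (13.3 to 18.9). Endothelial-like cells were 320 young (35.7%, 32.6 to 39.0) and 194 old cells (16.3%, 14.3 to 18.5), which was 19.4 points fewer in the old library with an interval of −23.2 to −15.6. These were the widest gaps among the 6 classes, in opposite directions. With a gate on each cell's markers in place of clusters the T cell difference was 8.71 points.

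Neutrophils were 91 young cells (10.2%, 8.26 to 12.3) and 188 old cells (15.8%, 13.8 to 18.0), a difference of 5.66 points (2.74 to 8.49), or 1.30 with at least 500 genes per cell. Dendritic cells were 169 young (18.9%, 16.4 to 21.6) and 157 old cells (13.2%, 11.3 to 15.3), a difference of −5.66 points (−8.90 to −2.48), or −1.33 with the gate on each cell. Fibroblast-like cells were 87 young (9.71%, 7.85 to 11.8) and 67 old cells (5.63%, 4.39 to 7.10), a difference of −4.07 points (−6.49 to −1.78). ILC2 were 67 young (7.48%, 5.84 to 9.40) and 116 old cells (9.76%, 8.13 to 11.6), and the interval of their difference of 2.28 points, −0.19 to 4.67, included 0, while the gate gave 4.75 points.

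Shares of 1 library add up to a whole, and the 2 libraries differed in how much of each was not leukocyte. The leukocyte classes together were 418 of 896 young (46.7%) and 892 of 1189 old kept cells, although both libraries came from a sort for CD45. Cells with a UMI of Ptprc, the gene for CD45, were 0.625% of young and 2.06% of old endothelial-like cells, at median depths of 1750 and 2042 UMIs, and 0 of 87 and 0 of 67 fibroblast-like cells. In dendritic cells, ILC2, neutrophils and T cells the same share lay between 33.6% and 59.9%. The CD45 label therefore did not hold for the endothelial-like and fibroblast-like cells at the transcript level.

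Within leukocytes alone the T cell difference was as wide, 50 of 418 young and 258 of 892 old cells (16.96 points, 12.5 to 21.1). The dendritic shares lay further apart, 40.4% against 17.6% (−22.8 points, −28.2 to −17.5). The interval of the neutrophil difference included 0 on this base, with shares of 21.8% and 21.1% (−0.69 points, −5.61 to 3.94), and ILC2 were 67 of 418 and 116 of 892 (−3.02 points, −7.36 to 0.96). Among non-leukocytes the endothelial-like share was 66.9% and 65.3%, and the fibroblast-like share 18.2% and 22.6%. The order of classes within the non-leukocyte cells was thus alike at both ages.

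2 clusters each made up the dendritic, T cell and endothelial-like classes. The conventional type 1 dendritic cluster, led by Clec9a and Irf8 but also by the proliferation genes Pclaf and Stmn1, held 30 of 169 young and 53 of 157 old dendritic cells. The type 2 cluster, led by Cd209a and Mgl2, held the remaining 139 and 104. Of the T cells, 27 young and 159 old fell in a cluster led by Ccl5, Cd8b1 and Nkg7, and 23 and 99 in a cluster led by the gamma delta receptor genes Trdv4 and Trdc. Of the endothelial-like cells, 253 young but 88 old fell in a cluster led by Ptprb, Aqp1 and Flt1, and 67 young and 106 old in a cluster led by Pgf, Ifit1 and Iigp1. Since genes such as Ccl5, Pclaf and Ifit1 both lead a cluster and differ between ages, these cluster sizes are given to describe the classes, and gene values are given within clusters where a result turns on them. The second endothelial-like cluster took its name under a limit chosen after the clusters were seen, that leading genes be found in at least 25% of its cells. With 10% it stayed unnamed, and it made up 7.48% of young and 8.92% of old kept cells.

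**Figure D2:**
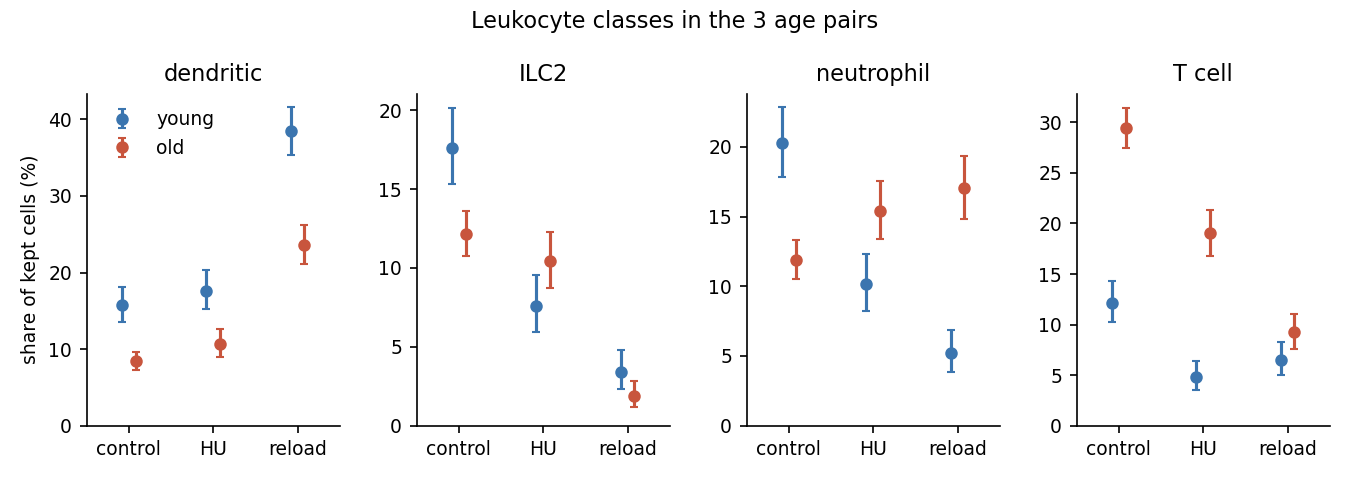
Points give the share of kept cells (y axis, percent) for dendritic cells, ILC2, neutrophils and T cells in the young and old libraries of the control, HU and reload pairs, clustered together, with exact 95% binomial intervals. The old T cell share lay above the young in all 3 pairs, by 17.3, 14.2 and 2.74 points.

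The same rule was applied to the 2 other age pairs, with all 6 libraries clustered together. In these clusters the fibroblast-like class of the unloading libraries held 103 young and 76 old cells. It included the 16 young and 9 old satellite cells (muscle stem cells) that clustered apart in the 2 libraries alone. A cluster of 102 cells with type 1 dendritic markers, led by proliferation genes, stayed unnamed. The old minus young T cell difference was 17.3 points in controls (14.4 to 20.0), 14.2 after unloading (11.5 to 16.8) and 2.74 after reloading (0.39 to 5.05). Dendritic cells were fewer in the old library of each pair, by differences of −7.37, −6.95 and −14.8 points. Neutrophils went the other way in controls, at −8.39 points (−11.3 to −5.62), against 5.23 after unloading (2.34 to 8.06) and 11.8 after reloading (9.16 to 14.4). Among leukocytes alone the neutrophil differences were −8.43, −1.23 (−6.12 to 3.38) and 12.1 points, so the unloading interval included 0. The dendritic difference after unloading was −23.5 points on that base. Endothelial-like cells were at most 1.34% and fibroblast-like cells at most 1.91% in each of the other 4 libraries, so both classes were abundant in the 2 unloading libraries only. The young and old control libraries shared 38 kept barcode sequences, more than any other pair. Each pair was 1 library a side, and differences between pairs were not tested.

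**Figure D3:**
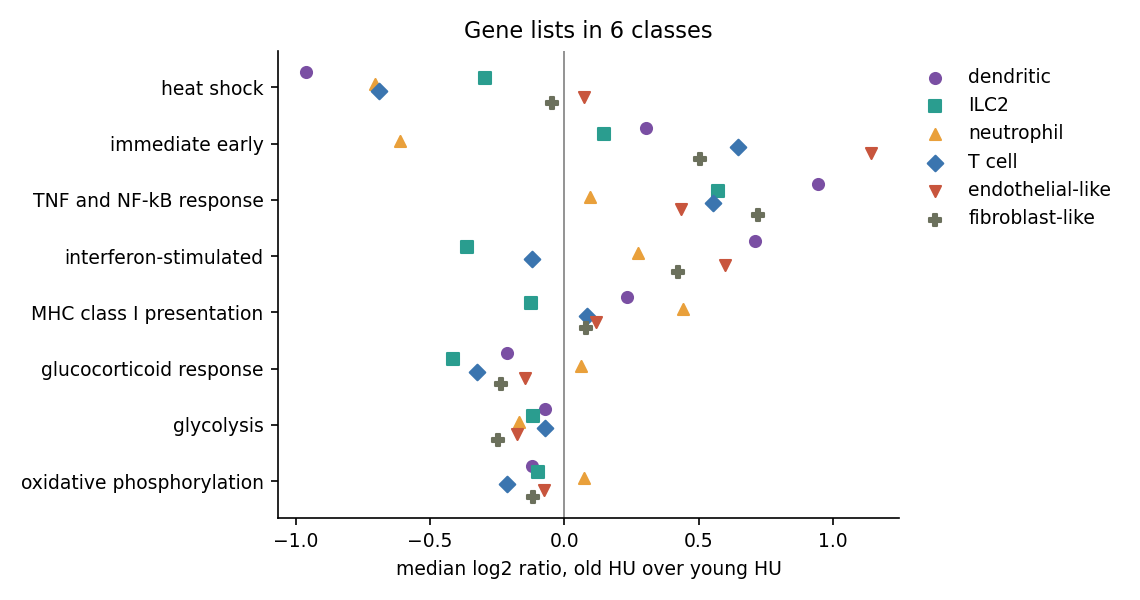
Symbols give the median log2 ratio of old HU over young HU (x axis) over the members of 8 gene lists with at least 20 UMIs, 1 symbol per class, for lists with at least 4 such members. The heat shock medians of dendritic cells, neutrophils and T cells lay at −0.96, −0.71 and −0.69, and the immediate early medians ranged from −0.61 in neutrophils to 1.14 in endothelial-like cells.

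Inducible heat shock transcripts were lower in old leukocytes, led by Hspa1a, the inducible HSP70 chaperone, which was past 2-fold lower in 5 of the 6 classes. The median of the heat shock list was −0.96 in dendritic cells, −0.71 in neutrophils, −0.69 in T cells and −0.29 in ILC2, whereas it lay within 0.1 of 0 in endothelial-like and fibroblast-like cells. Within the T cell clusters it was −1.01 in the Ccl5 and Cd8b1 cluster and −0.01 in the gamma delta cluster, and it was −0.30 for T cells with the clusters of 6 libraries. The level of Hspa1a in CPM, the UMIs of a gene scaled to 1000000 UMIs of its class, was 2495 in young and 260 in old dendritic cells, a log2 ratio of −3.26 (−3.46 to −3.07). In T cells Hspa1a stood at 2543 and 127 CPM (−4.32, −4.69 to −3.97), and in ILC2 at 1223 and 102 CPM (−3.59, −4.21 to −3.02). In neutrophils it was 132 UMIs in young and 3 in old cells (−6.34, −8.63 to −4.76). In fibroblast-like cells Hspa1a was 1091 and 161 CPM (−2.76, −3.32 to −2.25), while endothelial-like cells, at 769 and 431 CPM (−0.84, −1.06 to −0.61), stayed inside 2-fold.

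**Figure D4:**
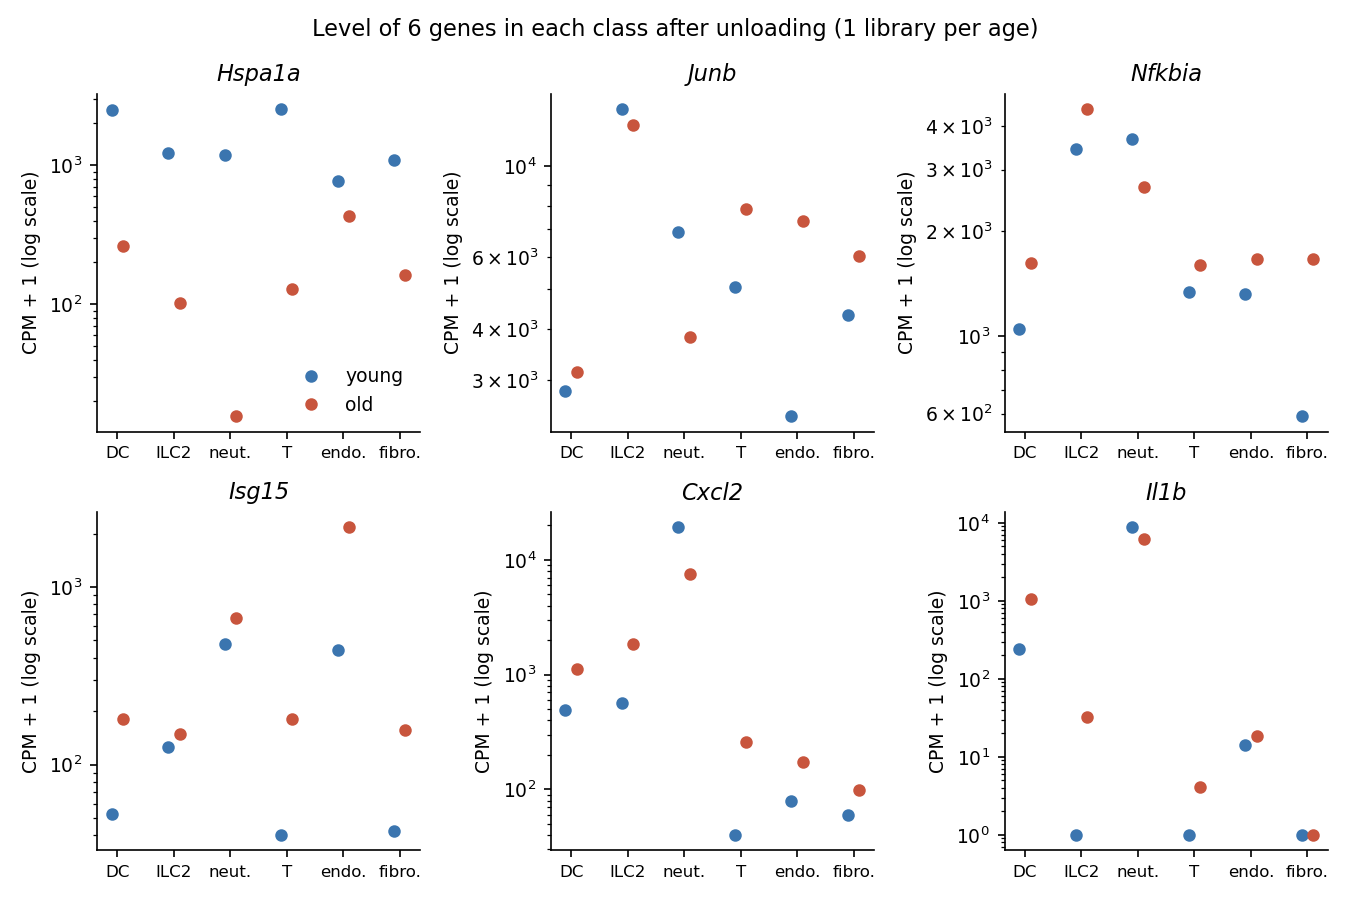
Points give the level of 6 genes (y axis, CPM plus 1, log scale) in the 6 classes of the young HU and old HU libraries. Hspa1a was lower in the old library in every class shown, Junb was higher in old endothelial-like cells (7340 against 2441 CPM) and lower in old neutrophils (3823 against 6888), and Isg15 was highest in old endothelial-like cells (2165 CPM).

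Hspa8, a constitutive HSP70 chaperone, was at 2591 CPM in young and 2765 in old dendritic cells (0.09, 0.01 to 0.17) and at 3555 and 3442 in T cells (−0.05, −0.19 to 0.10). Hspa1a was also lower in the old control library, with log2 ratios of −2.80 in dendritic cells, −5.52 in ILC2 and −3.64 in T cells. After reloading the values for Hspa1a were 0.44 in dendritic cells (0.31 to 0.58) and −1.46 in T cells (−2.34 to −0.61). With the clusters of 6 libraries, young dendritic cells held 3860, 2601 and 235 CPM of Hspa1a in control, unloading and reload, and old ones 555, 263 and 320. In dendritic cells the gap between ages thus lay in the young control and young unloading libraries, whereas T cells kept a lower old value after reloading.

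Old dendritic cells held more inflammatory transcripts and fewer inducible chaperones, whereas their antigen presentation genes were nearly level. Of 3185 genes with at least 50 UMIs, 146 (4.58%) were past 2-fold higher and 79 (2.48%) past 2-fold lower in the old library, and with mean UMIs per cell, which moved the median by 0.13, 205 and 54. Of the NF-kB and TNF response list, 15 of 34 such members were past 2-fold higher and 0 lower, and the median log2 ratio over its 40 members with at least 20 UMIs was 0.94, against −0.03 over all 5771 such genes. This median was 0.997 within the type 2 cluster and 1.24 within the type 1 cluster. With the clusters of 6 libraries it was −0.34 in the control pair, 0.88 after unloading and 0.03 after reloading, so the control pair had the opposite sign.

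Il1b, the gene of the cytokine interleukin-1 beta, counted 226 UMIs (243 CPM) in young and 987 (1043 CPM) in old dendritic cells, a log2 ratio of 2.10 (1.89 to 2.31). It was 2.38 within the type 2 and 1.45 within the type 1 cluster. Nlrp3, the inflammasome sensor, counted 7 and 71 UMIs (3.32, 2.20 to 4.68), and Cxcl2, a neutrophil-attracting chemokine, at 489 and 1126 CPM (1.20, 1.04 to 1.37). The NF-kB inhibitor gene Nfkbia, itself an NF-kB target, differed less, at 1048 and 1620 CPM (0.63, 0.51 to 0.75). Icam1, an adhesion ligand for leukocytes chosen after its values were seen, was at 89.3 and 405 CPM (2.18, 1.83 to 2.54). The receptor gene Clec4e, which senses microbial glycolipids and dead cells, was at 11.8 and 82.4 CPM (2.80, 1.88 to 3.86).

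Of the dendritic cell chemokines and cytokines, 7 of 14 members were past 2-fold higher and 0 lower, with a median of 0.42. With the clusters of 6 libraries the median was −0.40 in the control pair, 0.59 after unloading and −0.27 after reloading. Ccl5, which attracts T cells, was at 12.9 and 262 CPM (4.34, 3.51 to 5.31), although 1 old cell gave 42.3% of its UMIs and the ratio was 0.79 with the clusters of all 6 libraries. Ccl22, which attracts T cells with the receptor CCR4, rested on few cells, since 1 cell gave 87.6% of its UMIs and the log2 ratio was 5.45 with and 2.45 without it. Cxcl9, an interferon gamma target, was at 3 and 44 UMIs (3.85, 2.21 to 6.18), with 45.5% of them in 1 cell. Il12b, a subunit of interleukins 12 and 23, was chosen after its values were seen, and the share of its UMIs in 1 cell was not measured. It was at 0 UMIs in young and 65 in old dendritic cells, at least 21.3-fold higher against a floor of 3 UMIs in the young class. Ccl3 ran the other way, at 38.7 and 13.7 CPM (−1.496, −2.54 to −0.55). The make-up of the class also differed. Markers of migratory dendritic cells, which include Ccl22, summed to 180 CPM in young and 582 in old dendritic cells, and T cell markers to 9.69 and 76.1. Markers of plasmacytoid dendritic cells, at 1441 and 713 CPM, and of B cells, at 65.7 and 38.0, went the other way. Their part in the chemokine and cytokine values was not tested.

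MHC class II transcripts dominated the class at both ages. The 13 members of that list found in the files summed to 95734 CPM in young and 83658 in old dendritic cells, with 0 of 11 past 2-fold and a median of −0.19. Cd74, the invariant chain, was at 60856 and 52393 CPM (−0.22, −0.23 to −0.20), and H2-Aa at 14583 and 13327 (−0.13, −0.16 to −0.09). Cd83, a maturation marker, was at 363 and 672 CPM (0.89, 0.70 to 1.08), and the costimulatory ligand Cd86 at 36.6 and 66.6 CPM (0.86, 0.24 to 1.51), so both stayed inside 2-fold.

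Interferon-stimulated members were past 2-fold higher in 4 of 14 cases with 0 lower and a median of 0.71. Of the cell cycle list 9 of 14 members were past 2-fold higher and 0 lower, with a median of 1.26. That median was 0.37 within the type 2 and 0.65 within the type 1 cluster, and 0.23 with the clusters of all 6 libraries, where Birc5, a mitotic survival gene, turned from 2.30 to −0.88. That clustering left a cluster of 102 cells unnamed, which held 11 type 1 dendritic markers and was led by genes such as Pclaf and Birc5. The dendritic class then had 158 young and 127 old unloading cells, without the cells of that cluster. The part of this in the change was not tested. With the 2 libraries clustered alone, the old class also held a larger part of type 1 cells, whose cluster was led in part by proliferation genes. Hist1h2ap, a histone gene of S phase, was at 22.6 and 257 CPM (3.51, 2.86 to 4.22).

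On the lower side stood more of the chaperone machinery. Hspb1, a small heat shock protein gene, counted 120 UMIs in young and 3 in old dendritic cells (−5.35, −7.65 to −3.77), and Hsph1, an HSP70 partner, 145 and 18 (−3.04, −3.83 to −2.33). Of the heat shock list 9 of 17 members were past 2-fold lower and 0 higher. Acp5, a phosphatase gene best known from osteoclasts, had 533 and 7 UMIs (−6.28, −7.60 to −5.22), with 50.8% of them in 1 young cell. The macrophage markers fixed for the check summed to 563 CPM in young and 481 in old dendritic cells, with 4 and 3 of 22 at 0.

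**Figure D5:**
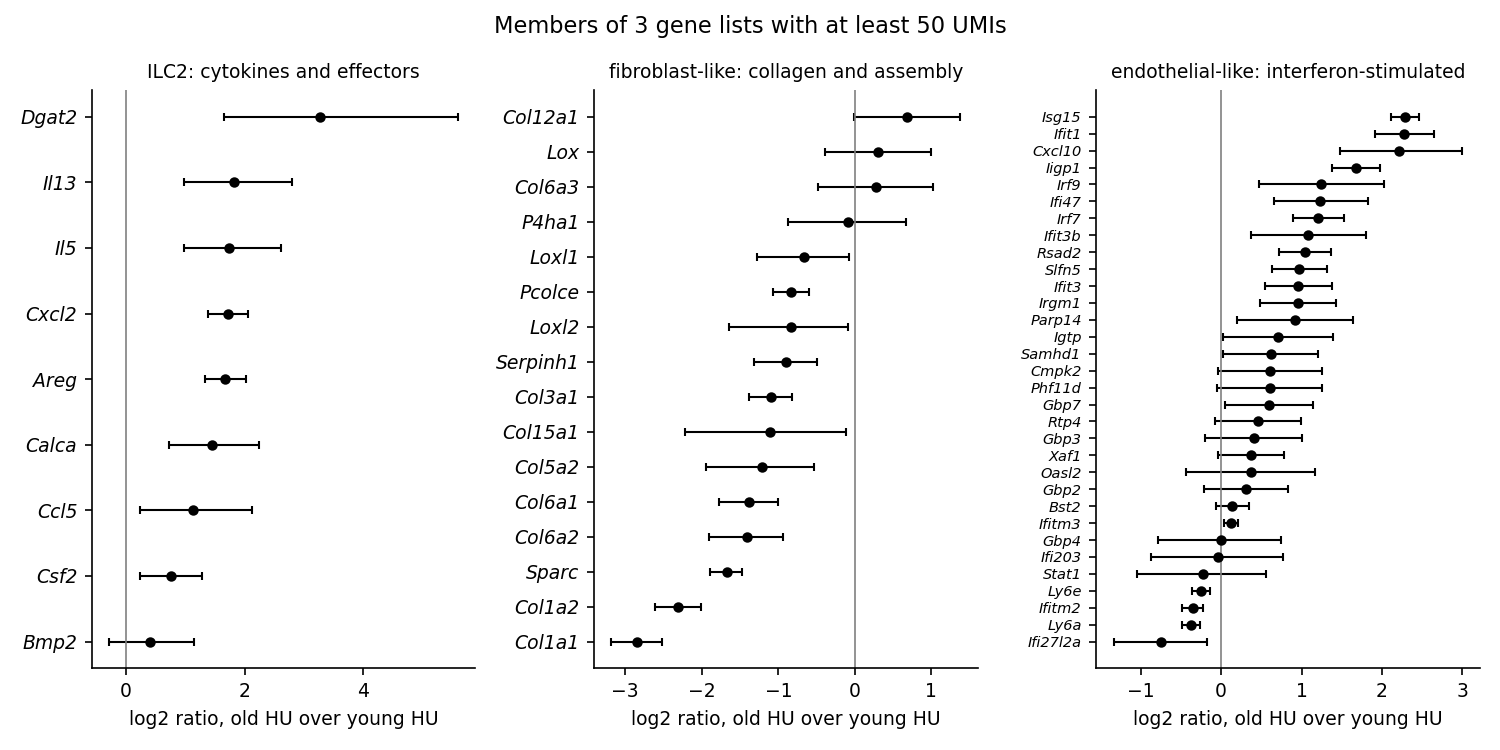
Points give the log2 ratio of old HU over young HU (x axis) for list members with at least 50 UMIs, with 95% counting intervals: ILC2 effectors, fibroblast-like collagen genes and endothelial-like interferon-stimulated genes. 7 of 9 ILC2 effectors lay past 2-fold higher, 8 of 16 collagen genes past 2-fold lower, and 9 of 32 interferon-stimulated genes past 2-fold higher in the old library.

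Old ILC2 held more effector transcripts than young ILC2, while the genes of their receptors and transcription factors were closer to level. Of 882 genes, 54 (6.12%) were past 2-fold higher and 18 (2.04%) past 2-fold lower, and with TMM scaling, which moved the median of all genes by 0.31, 88 and 8. Of the type 2 cytokines and effectors, 7 of 9 members were past 2-fold higher and 0 lower, with a median of 1.45 over 13 members against −0.09 over all 1988 genes. Several of these genes, Il5, Il13, Areg, Calca and Csf2 among them, also served as markers of the class.

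Il13, which drives mucus and alternative macrophage activation, counted 13 UMIs (85.0 CPM) in young and 86 (301 CPM) in old ILC2, a log2 ratio of 1.83 (0.98 to 2.79). Il5, the eosinophil growth factor, was at 105 and 350 CPM (1.74, 0.97 to 2.60). Areg, the epidermal growth factor receptor ligand amphiregulin, was at 530 and 1684 CPM (1.67, 1.33 to 2.03). Calca, which encodes the neuropeptide CGRP, was at 124 and 340 CPM (1.45, 0.73 to 2.24), and Cxcl2 at 562 and 1849 CPM (1.72, 1.39 to 2.06). Csf2, which encodes GM-CSF, stayed inside 2-fold at 275 and 462 CPM (0.75, 0.24 to 1.29), as did the arginase gene Arg1 at 150 and 91.0 CPM (−0.72, −1.59 to 0.15).

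Dgat2, an enzyme of triglyceride synthesis, had 3 UMIs in young and 54 in old ILC2 (3.27, 1.65 to 5.59). In the control pair Dgat2 was at 314 CPM in young and 208 in old ILC2, and the young unloading library, at 19.5 CPM, stood below both. The same held for Il13, at 589 and 527 CPM in the control pair, and for Areg, at 994 and 733. The list's median was 0.02 in the control pair, 1.51 after unloading and 0.14 after reloading, all with the clusters of 6 libraries.

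Among the other named genes, Irs2, an adaptor of insulin signalling, was at 5 and 53 UMIs (2.51, 1.19 to 4.19), and the early response gene Ier3 at 12 and 121 (2.43, 1.58 to 3.43). Skil, a brake on TGF-beta signalling, was at 6 and 59 UMIs (2.40, 1.19 to 3.90), and the interleukin-10 receptor gene Il10ra at 8 and 59 (1.98, 0.91 to 3.26). Lower in old ILC2 were Txnip, an inhibitor of glucose uptake and thioredoxin, at 451 and 112 CPM (−2.01, −2.66 to −1.38), and the ubiquitin ligase gene Siah2 at 242 and 59.5 CPM (−2.02, −2.94 to −1.16). Fos, an immediate early factor, was also lower at 1759 and 739 CPM (−1.25, −1.52 to −0.99), while Junb, its partner, was level at 13814 and 12603 CPM (−0.13, −0.21 to −0.05).

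Of the ILC2 receptors, 3 of 14 members were past 2-fold higher and 0 lower, with a median of −0.01, a sign that the TMM shift would turn. Il1rl1, the receptor of interleukin-33, was at 235 and 340 CPM (0.53, −0.04 to 1.12), and Il7r at 556 and 378 CPM (−0.56, −0.98 to −0.13). Ramp3, part of the receptors for adrenomedullin and CGRP, was at 137 and 364 CPM (1.41, 0.72 to 2.16). Of the transcription factors 0 of 6 were past 2-fold, and Gata3, which defines type 2 cells, stood at 902 and 1086 CPM (0.27, −0.03 to 0.57).

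Old neutrophils held less of the immediate early transcripts and of Cxcl2 and Ptgs2 than young ones, while the chemokine, granule and receptor lists were mixed or near the background. Of 761 genes, 74 (9.72%) were past 2-fold higher and 47 (6.18%) past 2-fold lower, and the median over all 1573 genes with at least 20 UMIs was 0.22, so values near 0 lay below most genes. Of the immediate early list 6 of 28 members were past 2-fold lower and 0 higher, with a median of −0.61. Neutrophils were shallow, with medians of 1068 UMIs in young and 971 in old cells, and the mitochondrial median was 3.02% and 0.695%, a gap whose part was not tested.

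Cxcl2 was the leading chemokine gene, at 19211 CPM in young and 7593 in old neutrophils (−1.34, −1.43 to −1.24). Ptgs2, the inducible cyclooxygenase of prostaglandin synthesis, was at 493 and 58.5 CPM (−3.08, −4.11 to −2.16). Il1b stayed inside 2-fold at 8745 and 6276 CPM (−0.48, −0.60 to −0.36), and Egr1, an immediate early factor, was at 718 and 219 CPM (−1.71, −2.27 to −1.16). Lower as well were the metal-binding protein gene Mt1 at 843 and 107 CPM (−2.97, −3.72 to −2.29) and the lipid droplet gene Hilpda at 655 and 141 CPM (−2.21, −2.88 to −1.57).

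Of the granule proteins 3 of 14 members were past 2-fold higher and 3 lower, with a median of −0.13. Mmp8, the neutrophil collagenase, was at 1435 and 332 CPM (−2.11, −2.54 to −1.70), Lcn2, which binds bacterial siderophores, at 4780 and 1975 CPM (−1.28, −1.47 to −1.09), and Wfdc21 at 4036 and 1600 CPM (−1.34, −1.54 to −1.13). These 3 genes were also markers of the class. The 3 members past 2-fold higher, Camp, Ltf and Ngp, are made by immature neutrophils, and each came almost wholly from 1 old cell, with 100%, 100% and 98.0% of their old UMIs there. Without that gene's highest cell their ratios turned to −1.84, −0.25 and −3.69. S100a8 and S100a9, the most abundant neutrophil products, were level at −0.06 (−0.11 to −0.02) and −0.15 (−0.19 to −0.12).

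Higher in old neutrophils were Ifngr2, the signalling chain of the interferon gamma receptor, at 3 and 57 UMIs (3.37, 1.75 to 5.69), and Ywhah, a 14-3-3 adaptor, at 3 and 49 UMIs (3.15, 1.52 to 5.48). The integrin gene Itgb2, needed for firm adhesion, was at 197 and 507 CPM (1.36, 0.69 to 2.10), and Creg1 at 71.8 and 351 CPM (2.29, 1.24 to 3.56). The complement receptor gene C5ar1, chosen after its values were seen, was at 771 and 1858 CPM (1.27, 0.93 to 1.62). Hdc, the histamine-forming enzyme, was at 1785 and 3828 CPM (1.10, 0.87 to 1.33), and Acod1, which makes itaconate, at 852 and 1770 CPM (1.05, 0.73 to 1.40). Of the receptor and adhesion list 2 of 18 members were past 2-fold higher and 0 lower, near the share over all genes, with a median of 0.38. Of the neutrophil chemokines and cytokines 5 of 13 members were past 2-fold higher and 3 lower, with a median of 0.31. That median ranged from −0.90 to 0.41 over the alternatives. Markers of basophils summed to 0 UMIs in young and 76 (371 CPM) in old neutrophils, and those of mast cells to 26.9 and 132 CPM. Monocyte markers, at 4511 and 3736 CPM, went the other way. The clusters of 6 libraries set basophils apart and left 91 young and 183 old unloading cells in the neutrophil class. The part of these other cell types in the neutrophil values, Hdc and the cytokines included, was not tested. When every class total was replaced by mean UMIs per cell, which moved the median by −0.17, calls in neutrophils split into 50 higher and 59 lower, against 74 and 47.

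Old T cells held more transcripts of Cdkn1a and of immediate early factors, and fewer of the inducible chaperones and of the gamma delta receptor. Only 50 young T cells with 127417 UMIs stood against 258 old ones with 636865, so the young values were the less precise. Of 1564 genes, 142 (9.08%) were past 2-fold higher and 81 (5.18%) past 2-fold lower. TMM scaling moved the median of all genes by 0.37 and gave 247 higher and 16 lower, so lower calls in this class depended on the scaling.

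Cdkn1a, the cyclin-dependent kinase inhibitor p21, counted 4 UMIs (31.4 CPM) in young and 249 (391 CPM) in old T cells, a log2 ratio of 3.64 (2.26 to 5.53). It was higher in both T cell clusters, at 2.13 in the Ccl5 and Cd8b1 cluster and 5.16 in the gamma delta cluster. In the control pair Cdkn1a was at 186 and 374 CPM, and with the same clusters the young unloading value was 29.4 CPM, below both. Of the list of cell cycle inhibitors and p53 targets 1 of 6 members was past 2-fold higher, Cdkn1a itself, with a median of 0.15 against −0.13 over all 3503 genes.

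Of the immediate early list 12 of 34 members were past 2-fold higher and 0 lower, with a median of 0.65. The nuclear receptor gene Nr4a1, induced by antigen receptor signals, was at 698 and 1467 CPM (1.07, 0.76 to 1.40), and Crem, a cAMP-responsive factor, at 110 and 341 CPM (1.63, 0.85 to 2.53). Junb stayed inside 2-fold at 5054 and 7854 CPM (0.64, 0.52 to 0.76). Zc3h12a, an RNase that trims cytokine transcripts, was at 2 and 80 UMIs (3.00, 1.10 to 6.07), Hilpda at 5 and 161 (2.69, 1.44 to 4.33) and Ramp3 at 4 and 163 (3.03, 1.64 to 4.92).

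Of the cytotoxic and effector list 5 of 13 members were past 2-fold higher and 2 lower, with a median of 0.26. The median was 0.35 in the Ccl5 and Cd8b1 cluster and −0.75 in the gamma delta cluster, where 6 of 6 members lay below 0. Ccl5 was at 3948 and 9318 CPM (1.24, 1.11 to 1.37) and also led 1 of the T cell clusters. Gzma, a granzyme gene used as a natural killer cell marker, was at 0 and 533 UMIs, at least 35.5-fold higher against a floor of 3 UMIs in the young class. Markers of natural killer cells summed to 275 CPM in young and 1050 in old T cells, with 4 and 0 of 12 at 0. In these clusters natural killer cells inside the class cannot be told apart from a change within T cells. The clusters of 6 libraries set apart 325 natural killer cells and left 43 young and 226 old unloading cells in the T cell class. The granzyme gene Gzmb, chosen after its values were seen, was at 4 and 102 UMIs (2.35, 0.95 to 4.25). The T cell markers themselves summed to 3147 and 2913 CPM, and Cd3e was level at 753 and 688 CPM (−0.13, −0.45 to 0.20).

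Of the gamma delta and type 17 list 4 of 9 members were past 2-fold lower and 1 higher, with a median of −1.12, and −0.95 within the gamma delta cluster. Trdv4, a delta chain segment that led that cluster, was at 1413 and 634 CPM (−1.16, −1.41 to −0.89), and the scavenger receptor gene Cd163l1 at 440 and 203 CPM (−1.12, −1.58 to −0.64). Il17a, the cytokine of these cells, ran the other way with 1 UMI in young and 103 in old T cells (4.37, 1.85 to 9.68), and 28.2% of them came from 1 cell. The chemokine receptor gene Cxcr6, found on resident T cells, was at 345 and 92.6 CPM (−1.90, −2.49 to −1.30), but of the tissue residence list 4 of 9 members were past 2-fold higher and 1, Cxcr6, lower, with a median of 0.99. In the control pair the gamma delta and type 17 list had a median of 0.93, opposite in sign to the −1.21 after unloading with the same clusters.

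Old endothelial-like cells held more immediate early and interferon-stimulated transcripts, while the capillary and junction lists had medians only slightly below that of all genes. Of 3303 genes, 100 (3.03%) were past 2-fold higher and 99 (3%) past 2-fold lower, or 117 and 75 with TMM scaling. Of the immediate early list 19 of 30 members were past 2-fold higher and 0 lower, with a median of 1.14 against −0.12 over all 6022 genes. Of the interferon-stimulated list 9 of 32 members were past 2-fold higher and 0 lower, with a median of 0.60. The young class lay mostly in the Ptprb and Flt1 cluster and the old class mostly in the Pgf and Ifit1 cluster, so values within clusters are given beside these.

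Interferons act through receptors that activate the ISGF3 complex, which binds a DNA element with repeated GAAA letters in target promoters. In RefSeq promoters (GRCm38.p6) the 250 bases before the start were searched on both strands for GAAA followed, after any 2 bases, by GAAA again. Of all 27025 gene promoters 3.46% held it. Of the 42 list members with a promoter there, 21 held it, and of the 8 with a promoter among those past 2-fold higher, 5 did. For these 5 genes, shown because they hold a match, 100 bases around the matches are printed 5′ to 3′ on the gene's strand, with the matched letters in capitals. A match on the opposite strand reads as repeated TTTC.
Isg15, chr4:156200836-156200935, minus strand: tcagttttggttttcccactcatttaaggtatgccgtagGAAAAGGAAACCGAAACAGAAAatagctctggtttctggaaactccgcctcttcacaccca
Ifit1, chr19:34640750-34640849, plus strand: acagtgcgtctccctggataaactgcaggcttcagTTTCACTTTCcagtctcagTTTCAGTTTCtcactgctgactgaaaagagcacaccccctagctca
Cxcl10, chr5:92349040-92349139, minus strand: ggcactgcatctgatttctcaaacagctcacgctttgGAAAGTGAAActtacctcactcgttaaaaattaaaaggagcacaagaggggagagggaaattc
Ifit3b, chr19:34607741-34607840, plus strand: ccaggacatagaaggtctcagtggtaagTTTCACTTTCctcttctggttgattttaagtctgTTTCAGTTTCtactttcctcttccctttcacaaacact
Rsad2, chr12:26456518-26456617, minus strand: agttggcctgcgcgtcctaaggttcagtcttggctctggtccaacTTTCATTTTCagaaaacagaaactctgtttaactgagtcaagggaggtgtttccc
Isg15 held 3 overlapping matches, Ifit1 and Ifit3b 2 each and Cxcl10 and Rsad2 1 each. A match is a description of letters and not a site shown to be bound.

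Isg15, a ubiquitin-like protein conjugated during interferon responses, counted 366 UMIs (443 CPM) in young and 1121 (2165 CPM) in old endothelial-like cells, a log2 ratio of 2.29 (2.12 to 2.46). It was 2.15 within the Ptprb and Flt1 cluster and 2.26 within the Pgf and Ifit1 cluster, so it was as large within each cluster as over the class. Ifit1, which binds foreign RNA, was at 104 and 504 CPM (2.27, 1.92 to 2.64) over the class, and 2.05 and 2.15 within the clusters. Cxcl10, an interferon-induced chemokine for T cells, was at 21 and 61 UMIs (2.21, 1.47 to 3.00). Rsad2 and Ifit3b, named for their promoters and after their values were seen, were at 1.04 (0.72 to 1.37) and 1.08 (0.37 to 1.80).

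Not all interferon targets were apart. Ifitm3, an abundant membrane protein that blocks virus entry, was at 2980 and 3248 CPM (0.12, 0.03 to 0.21), and Ly6e and Ly6a were lower inside 2-fold, at −0.25 (−0.36 to −0.13) and −0.37 (−0.48 to −0.26). Socs1, an inhibitor of cytokine signalling that interferons induce, was at 13 and 99 UMIs (3.60, 2.76 to 4.56). Within the clusters it was 2.45 and 4.66.

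Junb was at 2441 and 7340 CPM (1.59, 1.51 to 1.67), with 0.95 within the Ptprb and Flt1 cluster and 1.66 within the Pgf and Ifit1 cluster. The median of the immediate early list was 0.61 and 1.20 in these clusters, the former smaller than over the class. Egr2 was at 7 and 25 UMIs (2.51, 1.26 to 3.96), and Jun at 1788 and 2912 CPM (0.70, 0.60 to 0.81). Fos and Egr1, chosen after their values were seen, stood at 2.02 (1.86 to 2.18) and 1.92 (1.78 to 2.07). Sertad1, a cell cycle coregulator, was at 286 and 1466 CPM (2.36, 2.15 to 2.57).

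Tnf, an inflammatory cytokine gene, was at 17 and 68 UMIs (2.67, 1.89 to 3.53), with 22.1% of them in 1 cell, and Tnfsf9, a costimulatory ligand, at 27 and 171 UMIs (3.34, 2.74 to 3.98). Icam1 was at 86.0 and 234 CPM (1.44, 1.01 to 1.89). Of the NF-kB and TNF response list 7 of 18 members were past 2-fold higher and 3 lower, with a median of 0.43.

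Of the capillary list 0 of 21 members were past 2-fold, and 16 of 22 with at least 20 UMIs lay below 0. Their median was −0.21 against −0.12 over all 6022 genes, so most genes lay below 0 as well. The capillary median was −0.39 within the Ptprb and Flt1 cluster, with 18 of 21 members below 0. It was 0.10 within the Pgf and Ifit1 cluster, with 14 of 21 above 0. Of the junction and adhesion list 1 of 17 members was past 2-fold higher and 0 lower. Of its 18 members with at least 20 UMIs 16 lay below 0, with a median of −0.26, and −0.28 and −0.15 within these clusters. Fabp4, a fatty acid carrier of muscle capillaries, was at 24400 and 23271 CPM (−0.07, −0.10 to −0.04), Pecam1 at 818 and 714 CPM (−0.19, −0.38 to −0.01), and the VEGF receptor gene Kdr at 228 and 301 CPM (0.40, 0.09 to 0.72). Past 2-fold lower were Pdgfb, the growth factor with which endothelial cells hold pericytes, at 117 and 40.6 CPM (−1.54, −2.29 to −0.84), and Vwa1, a matrix protein gene, at 88.4 and 21.2 CPM (−2.06, −3.12 to −1.13).

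MHC class II genes were lower by a median of −2.83 over 6 members. Cd74, at 403 and 18 UMIs (−3.81, −4.58 to −3.13), and H2-Aa, at 77 and 6 (−3.01, −4.50 to −1.82), each had over 40% of their UMIs in 1 cell, 43.9% and 49.4%. Markers of type 2 dendritic cells, which include both genes, summed to 768 CPM in young and 96.6 in old endothelial-like cells, and RNA of dendritic cells cannot be told apart here. Haemoglobin transcripts made up 37521 CPM in young and 59664 in old endothelial-like cells and mark red cell RNA in the class. In the Pgf and Ifit1 cluster they were at 88316 and 79087 CPM, and the median ratio of the 4 genes turned from 0.61 to −0.32 without the cell with most UMIs and to −0.88 with the clusters of 6 libraries. Their part in the other values was not tested.

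Old fibroblast-like cells held less collagen transcript and more of a few chemokine and early response genes, but single cells weighed heavily in a class of 87 young and 67 old cells. Of 1419 genes, 39 (2.75%) were past 2-fold higher and 91 (6.41%) past 2-fold lower. The lower count was 57 without the cell with most UMIs in each library, and 42 without each gene's highest cell. With mean UMIs per cell, which moved the median by −0.35, 21 genes were higher and 186 lower, and with mitochondrial, ribosomal and haemoglobin genes left out of the totals 51 and 76. Of the collagen and assembly list 8 of 16 members were past 2-fold lower and 0 higher, with a median of −0.90 against −0.10 over all 3296 genes. Markers of tenocytes (tendon cells) summed to 8344 CPM in young and 6309 in old fibroblast-like cells. Thbs4, a tenocyte marker, was among the leading genes of the cluster. The part of tenocyte RNA in the collagen values was not tested.

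Col1a1, a chain of type I collagen and a marker of the class, counted 1007 UMIs (2978 CPM) in young and 85 (415 CPM) in old fibroblast-like cells, a log2 ratio of −2.84 (−3.18 to −2.52). 1 young cell held 61.8% of the young UMIs, and without it the ratio was −1.69. Its partner chain Col1a2 was at 2538 and 512 CPM (−2.31, −2.61 to −2.01), and −1.13 without its highest cell. Col3a1 was at 1461 and 683 CPM (−1.10, −1.38 to −0.82), and −0.66 without its highest cell. Sparc, which binds collagen, was at 3605 and 1127 CPM (−1.68, −1.89 to −1.47), and −0.98 without it, so direction held and size shrank for all 4 genes. In the control and reload pairs Col1a1 was also lower in the old library, at −0.78 (−1.31 to −0.26) and −1.65 (−2.05 to −1.28), over 4 and 10 cells in the control and 18 and 9 in the reload libraries. These 2 values use the clusters of 6 libraries, in which satellite cells were not named apart from the fibroblast-like class.

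Other matrix genes were mixed. Of 27 members of the other matrix list 3 were past 2-fold lower and 1 higher, with a median of −0.18. Dcn, the proteoglycan decorin, was at 22108 and 19581 CPM (−0.18, −0.23 to −0.12), and Postn, periostin, at 1062 and 220 CPM (−2.27, −2.75 to −1.82), or −1.36 without its highest cell. The fibronectin gene Fn1 was −1.82 (−2.18 to −1.48), but −0.29 without the cell that held 70.7% of its young UMIs. Of the proteases Mmp2, a gelatinase, was at 1571 and 766 CPM (−1.04, −1.30 to −0.78) and the collagen-degrading cathepsin gene Ctsk at 467 and 166 CPM (−1.49, −2.07 to −0.95).

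Of the fibroblast chemokine and complement list 4 of 12 members were past 2-fold higher and 0 lower, with a median of 0.49. Ccl2, which attracts monocytes, was at 16 and 190 UMIs (4.29, 3.56 to 5.13), with 49.5% of the old UMIs in 1 cell and a ratio of 3.33 without it. For its relative Ccl7, at 10 and 80 UMIs (3.72, 2.77 to 4.84), 1 cell held 78.8%, and the ratio without it was 1.56. Cxcl1, which attracts neutrophils, was at 538 and 1186 CPM (1.14, 0.86 to 1.42), or 0.71 without its highest cell.

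More evenly spread over cells was the growth regulator Myc, at 49 and 147 UMIs (2.31, 1.83 to 2.80). The ribosome assembly gene Nop58 was at 20 and 78 UMIs (2.69, 1.96 to 3.47), the antiproliferative gene Tob1 at 9 and 48 (3.14, 2.09 to 4.35) and Icam1 at 24 and 69 (2.25, 1.56 to 2.98). For these 4 genes the ratio without the highest cell lay between 1.96 and 3.01. Pdgfra, the receptor that marks these cells, was at 189 and 181 CPM (−0.07, −0.69 to 0.54).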

How the data were processed

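Single-cell UMI counts were measured in 6 libraries. Per the labels, the authors aligned reads to mm10 with Cell Ranger 3.1.0 and worked in Seurat, and the deposited matrices hold raw counts of UMIs per gene and barcode. Kept barcodes of both unloading libraries were clustered in Seurat 5.3.0 on R 4.3.3 (2000 variable genes, 30 components, resolution 0.8). A cluster was named from at least 3 markers of 1 of 23 marker lists, found in at least 25% of its cells at 1.5-fold or more, with limits on its 10 leading genes. These limits were set after the clusters were seen. UMIs were summed per class and library and scaled to CPM. Ratios carry exact conditional Poisson intervals, shares exact Clopper-Pearson intervals and differences of shares Newcombe intervals. A library at 0 was set to 3 counts. There was no replicate and hence no test. The ratio code was tested on simulated data. Scrublet in scanpy 1.11.5 marked doublets, which were kept. edgeR 4.0.16 gave TMM factors only, and Python 3.11.15 with scipy 1.17.1 did the rest.

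Genes named were, per class, those found in at least 5% of cells with the 8 largest and 8 smallest ratios among genes of at least 50 UMIs, and in each list with at least 4 measured members the 3 with most UMIs and the highest and lowest ratio; other genes are said to be chosen later or are markers or list members given as examples. The members, 14 general and 28 class gene lists and the markers were chosen with earlier results of these data known. The alternatives changed the limits on barcodes, clustering, naming, scaling, thinning and the UMI minimum. 1 result is not reported here.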

Additional observations from a re-analysis of the deposited data

Results flagged for a closer look

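The values below were picked out because the old minus young difference had opposite signs in the control, unloading and reload pairs. All use the clusters of 6 libraries, each pair is 1 library a side, and the difference between pairs was not tested. The ILC2 share differed by −5.51 points in controls, 2.84 after unloading and −1.52 after reloading, and the neutrophil share by −8.39, 5.23 and 11.8 points.

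In ILC2, the log2 ratio of Dgat2 was 3.27 after unloading and −1.40 after reloading. In neutrophils, Clec4n was at 2.29 after unloading and −1.62 after reloading, Creg1 at 2.35 after unloading and −1.20 in controls, Gyg at 2.43 in controls and −1.60 after unloading, and Tlcd2 at 2.13 after unloading, 1.04 after reloading and −1.04 in controls. In T cells, Cxcl2 was at 2.53 after unloading, 2.78 after reloading and −2.91 in controls, and Ramp3 at 2.86 after unloading and −1.13 after reloading. The fibroblast-like class of these clusters took in the satellite cells, and the reload libraries held 18 young and 9 old cells of it. In this class Ccl2 was at 3.19 after unloading and −5.01 after reloading, Ccl7 at 2.97 and −3.12, and Myc at 1.65 and −1.10.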

How the results depend on the processing

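No paired analysis was possible because each age was 1 library. The limits are the single library a side, the shallow neutrophils, the few young T cells and single cells that carry a gene's UMIs. Over 12 alternatives 68 of 72 share differences moved by less than their counting interval. The others were dendritic cells at −1.33, ILC2 at 4.75 (4.745 unrounded) and T cells at 8.71 (8.705) points with a gate on each cell, and neutrophils at 1.30 with at least 500 genes. The cause was not tested for any value here, beyond the fewer cells or genes that an alternative leaves. Alternatives that left out single cells or changed the leading-gene limit were chosen after seeing the data.

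Counts of genes past 2-fold are given as higher and lower. Thinned to 1000 UMIs they were 17 and 15 in dendritic cells, 19 and 6 in ILC2, 37 and 26 in neutrophils, 51 and 17 in T cells, 40 and 30 in endothelial-like and 9 and 14 in fibroblast-like cells. With at least 20 UMIs they were, in that order, 393 and 321, 141 and 124, 191 and 97, 387 and 338, 223 and 402, and 125 and 326, and with at least 200 UMIs 34 and 20, 16 and 4, 18 and 20, 23 and 4, 39 and 8, and 11 and 30. TMM scaling gave 88 and 8 in ILC2 and 247 and 16 in T cells, and mean UMIs per cell 21 and 186 in fibroblast-like cells. With at most 3 C1q UMIs dendritic cells gave 95 and 49. With at least 500 genes neutrophils gave 47 and 28, and endothelial-like cells 47 higher. T cells gave 81 and 35 with the gate, 53 lower with the clusters of 6 libraries and 36 lower without each gene's highest cell. Endothelial-like cells gave 39 higher with the 10% naming limit. Fibroblast-like cells gave 47 lower with 0 C1q UMIs, 57 without the cell with most UMIs and 42 without each gene's highest cell.

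Of 552 list medians 5 moved by more than the interquartile range of their members. The dendritic cell cycle median was 0.23 with the clusters of 6 libraries, the endothelial-like haemoglobin median −0.88 with these and −0.32 without the cell with most UMIs, and the fibroblast-like glycolysis median −0.59 with mean UMIs per cell and −0.57 with the clusters of 6 libraries. Some medians that moved by less still changed sign. The neutrophil chemokine and cytokine median (0.31) ranged from −0.90 to 0.41, and the ILC2 heat shock median (−0.29) from −0.61 to 0.016. The ILC2 median of cell cycle inhibitors and p53 targets (−0.12) ranged from −0.61 to 0.82. Of 205 named genes past 2-fold, 13 changed sign under at least 1 of 19 alternatives. With the clusters of 6 libraries these were Birc5 (−0.88), Cd63 (0.12) and Clec12a (0.030) in dendritic cells and Ccl5 (2.19) in endothelial-like cells. With thinning they were Birc5 (−0.89) in dendritic cells, and Ank (1.01) and Mest (0.012) in fibroblast-like cells. Cd63 was 0.20 with every cell weighted equally, and neutrophil Ero1l −0.028 with at least 500 genes. Without the cell with most UMIs neutrophil Camp, Ltf and Ngp were −1.89, −0.30 and −3.21, and without each gene's highest cell −1.84, −0.25 and −3.69. With the gate Hk2 was −0.84 in T cells, Ccl5 2.97 (2.975) in endothelial-like and Lyve1 2.33 in fibroblast-like cells. With at most 3 C1q UMIs Ccl5 was 2.15 and Lyve1 2.32, and with 0 C1q UMIs Lyve1 was 2.06 and Ctsd 0.021. Lyve1 was also 2.41 with at most 5% mitochondrial UMIs, 2.33 with at least 500 genes and 2.32 at resolution 1.6.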

Other observations

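Other C1q-low types were also counted. B cells were 9 of 896 young and 60 of 1189 old cells (1.004% and 5.05%), and monocytes, in 2 clusters, 15 and 95 (1.67% and 7.99%). Mast cells were 17 and 18 (1.90% and 1.51%), mural cells of the vessel wall 55 and 27 (6.14% and 2.27%) and satellite cells, the muscle stem cells, 16 and 9 (1.79% and 0.757%).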
